A study of Rattus norvegicus with 8 samples.

Results

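The miR-34 family was described here in the kidneys of rats given aristolochic acid (AA), a plant carcinogen that forms DNA adducts in the kidney, and of rats given saline. The members were all rows of the table of known rat miRNAs named miR-34a, miR-34b or miR-34c, on either arm of the hairpin. They came to 6 of the 620 rows, namely rno-miR-34a, rno-miR-34b and rno-miR-34c with rno-miR-34a*, rno-miR-34b* and rno-miR-34c*, where a star marks the arm opposite the one first named (the rat prefix is left out below). The 8 libraries were small RNA from 1 rat each, 4 in the control group (CTL1 to CTL4) and 4 in the AA group (AA1 to AA4). All 8 rats were male Big Blue rats, a Fisher 344 line carrying a transgene for mutation assays, and were 6 weeks old at the start. The AA group received the sodium salt of AA, a mixture of AAI and AAII, by gavage for 12 weeks, with 5 doses of 10 mg/kg in each week, and the control group received saline on the same schedule. The kidneys were taken 1 day after the last dose. Only this dose and this time were sequenced.

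miR-34 miRNAs are cut from hairpin transcripts and guide the silencing complex to mRNAs that pair with the seed, the bases near the 5′ end of the miRNA. The genes of the family are activated by p53, the tumour suppressor that responds to DNA damage, and their known targets include mRNAs of the cell cycle and of survival, such as those of cyclin D1, CDK6, BCL2 and MET. miR-34b and miR-34c are made from a common primary transcript, whereas miR-34a has a gene of its own. miR-34b, miR-34c and the related miR-449 miRNAs are known from multiciliated epithelium.

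The mature sequences are given because they define the family and because their likeness bears on how the reads could be told apart. All 6 rows were matched to a mature sequence in the RefSeq table for the rat assembly GRCr8, with the starred rows taken as the 3p arms. Whether the sequences used for counting were the same could not be checked. Each mature sequence is written 5′ to 3′ with bases 2 to 8, the seed, in capitals.
rno-miR-34a-5p: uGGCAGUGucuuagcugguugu
rno-miR-34b-5p: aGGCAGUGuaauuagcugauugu
rno-miR-34c-5p: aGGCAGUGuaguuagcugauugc
rno-miR-449a-5p: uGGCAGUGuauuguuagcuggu
rno-miR-449c-5p: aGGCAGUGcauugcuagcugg
rno-miR-34a-3p: aAUCAGCAaguauacugcccua
rno-miR-34b-3p: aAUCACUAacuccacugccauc
rno-miR-34c-3p: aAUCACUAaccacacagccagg
The 3 members shared 1 seed on the 5p arm, and 2 further miRNAs of the RefSeq table, miR-449a and miR-449c-5p, had the same bases. On the 3p arm, miR-34b* and miR-34c* shared a seed and miR-34a* had another. miR-34b-5p and miR-34c-5p were nearly identical, with the substitutions A11G and U23C, where the miR-34b base comes first and positions are counted from 1 at the 5′ end. Their opposite arms differed at 5 of 22 positions. miR-34a-5p was 4 edits (substitutions, insertions or deletions) from miR-34b-5p and 5 from miR-34c-5p.

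The hairpins are shown whole so that both arms, in capitals, can be seen in place. They lie at chr5:165815952-165816053 on the plus strand (Mir34a), chr8:60306609-60306692 on the minus strand (Mir34b) and chr8:60306091-60306167 on the minus strand (Mir34c), in GRCr8 coordinates. The counts themselves carry no genome build.
Mir34a: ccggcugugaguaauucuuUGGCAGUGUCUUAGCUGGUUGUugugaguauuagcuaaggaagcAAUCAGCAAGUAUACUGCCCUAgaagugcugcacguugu
Mir34b: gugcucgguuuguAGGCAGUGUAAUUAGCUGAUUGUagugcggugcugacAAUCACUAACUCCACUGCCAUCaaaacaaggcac
Mir34c: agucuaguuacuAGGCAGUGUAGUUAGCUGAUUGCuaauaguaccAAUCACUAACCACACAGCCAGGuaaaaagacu
Mir34b and Mir34c are direct neighbours on the minus strand. Mir34c lies within the span of the protein-coding gene Hoatz, a gene of cilia and flagella on the same strand, and Mir34b overlaps the end of that span. Mir34a lies within the lncRNA LOC103692514 on the plus strand. Whether these positions are exonic or intronic was not analysed here.

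The libraries held 13412373 to 15616670 reads on known miRNAs. One label names the tissue as liver, while the design text and the methods name the kidney. Of the markers of kidney tubule cells, miR-192, miR-194, miR-204 and miR-30a, none was absent. Their summed level was 138647 to 207290 CPM in control libraries and 104269 to 153582 in AA libraries. Most of that sum was miR-30a, at means of 125637 CPM in control and 111454 CPM in AA libraries. The means of miR-204 were 30.3 and 17.4 CPM. The liver miRNA miR-122 was at 4.05 to 53.02 CPM in control libraries and 0.696 to 523 in AA libraries. The highest values were those of CTL1 and AA2. The other libraries were at 4.05 to 5.89 CPM in the control group and 0.696 to 2.96 in the AA group. CPM is the number of reads scaled to 1000000 per library after TMM scaling of the libraries. It was not divided by length, since the mature sequences of the family are 22 or 23 bases long. Small RNA cloning recovers different sequences with different efficiency, so that an order of levels between miRNAs is an order of reads.

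All 6 members were higher in the AA group, by 10.4 to 22.4 times, and every AA library lay above every control library for each of them. The highest member, miR-34c, was 14.0 times higher and miR-34a was 22.4 times higher. All 6 passed the test across all 367 miRNAs that reached 10 reads in 4 or more libraries (quasi-likelihood test of edgeR, p-values adjusted by Benjamini and Hochberg, threshold 0.05). Over these 367, 10.4% were called higher in the AA group and 14.4% had every AA library above every control library. miR-34a* and miR-34b entered the test through the AA group, where they are high. miR-34a* reached 10 reads in no control library, and miR-34b only in CTL1 and CTL3. In kidney tissue, more cells that express a miRNA and more of it per cell cannot be told apart.

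miR-34c was the most abundant member in each of the 8 libraries. It was at 384, 280, 254 and 472 CPM in CTL1 to CTL4 and at 4781, 3011, 3301 and 8331 CPM in AA1 to AA4. The lowest AA library was 6.38 times the highest control library, and the libraries numbered 4 were the highest of their groups. The means were 348 ± 100.2 and 4856 ± 2443 CPM (SD, n = 4 each), which gave a log2 fold change of 3.80 ± 0.37 (SE, with an edgeR adjusted p = 6.1e-05). Ranked by level, miR-34c stood between the places 63 and 89 among the 620 rows in control libraries and between 11 and 27 in AA libraries.

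miR-34a, the member best known from the p53 response of many tissues, was next in level. It was at 25.1, 22.5, 23.6 and 32.9 CPM in CTL1 to CTL4 and at 442, 516, 496 and 877 CPM in AA1 to AA4. The groups were further apart than those of miR-34c, with the lowest AA library 13.4 times the highest control library. Its log2 fold change was 4.48 ± 0.28 (SE, with an edgeR adjusted p = 4.1e-06), the largest of the 6. As for miR-34c, AA4 stood highest, and without AA4 the log2 fold changes were 4.12 for miR-34a and 3.31 for miR-34c.

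miR-34b, the partner of miR-34c on the same primary transcript, was scarce on its 5p arm. It had 10, 6, 13 and 4 reads in CTL1 to CTL4 and 116, 163, 108 and 124 in AA1 to AA4. In contrast with miR-34a and miR-34c, AA4 was the lowest AA library after scaling, at 7.35 CPM against 7.43 to 8.97 in the others. The group means were 0.581 ± 0.234 and 8.15 ± 0.878 CPM (SD, n = 4 each), and the log2 fold change was 3.77 ± 0.32 (SE, with an edgeR adjusted p = 2.0e-05). How many mismatches the mapping to known miRNAs allowed is not given in the sources used here, so that the split of reads between miR-34b and miR-34c, which differ at 2 bases, is uncertain. With both rows summed, a choice made after the values were seen, the log2 fold change was 3.82. Nearly all reads of this sum are those of miR-34c, so that it does not bear on the change of miR-34b.

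**Figure D1:**
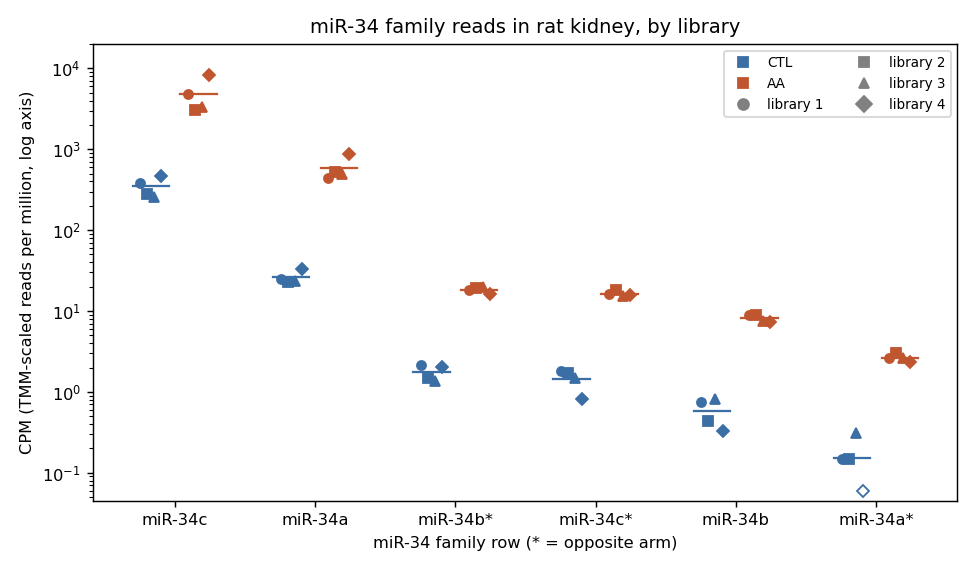
Level of each miR-34 family row in the 8 kidney libraries, as CPM on a log axis, with control libraries in blue, AA libraries in orange, a symbol for each library number and a bar at the group mean. Every AA library lies above every control library in all 6 rows, and the open symbol at the bottom stands for CTL4, where miR-34a* had 0 reads.

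The opposite arms rose with the named arms. miR-34b* had 29, 20, 22 and 25 reads in CTL1 to CTL4 and 234, 352, 288 and 275 in AA1 to AA4. This made miR-34b* more abundant than miR-34b, as counted, in all 8 libraries. Its log2 fold change, the smallest of the family, was 3.38 ± 0.24 (SE, with an edgeR adjusted p = 8.0e-06).

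miR-34c* had 24, 23, 24 and 10 reads in the control libraries and 207, 338, 222 and 268 in the AA libraries, with a log2 fold change of 3.49 ± 0.28 (SE, with an edgeR adjusted p = 1.5e-05). miR-34a* had 2, 2, 5 and 0 reads in the control libraries and 34, 56, 38 and 39 in the AA libraries. Its log2 fold change of 3.98 ± 0.48 (SE, with an edgeR adjusted p = 0.00037) rests on 9 control reads in all. The groups did not overlap for either arm, and the AA libraries were close to each other, at 15.3 to 18.3 CPM for miR-34c* and 2.31 to 3.04 CPM for miR-34a*.

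The spread within the AA group differed between the members. The coefficient of variation over the 4 AA libraries was 50.3% for miR-34c and 34.1% for miR-34a, and between 8.23% and 11.3% for the other 4 rows. The highest AA library of miR-34c was 2.77 times the lowest, compared with 1.20 times for its opposite arm. AA4 accounts for the top value of both wide members and for the lowest value of miR-34a*, miR-34b and miR-34b*. With 4 libraries a group, this difference in spread was not tested.

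**Figure D2:**
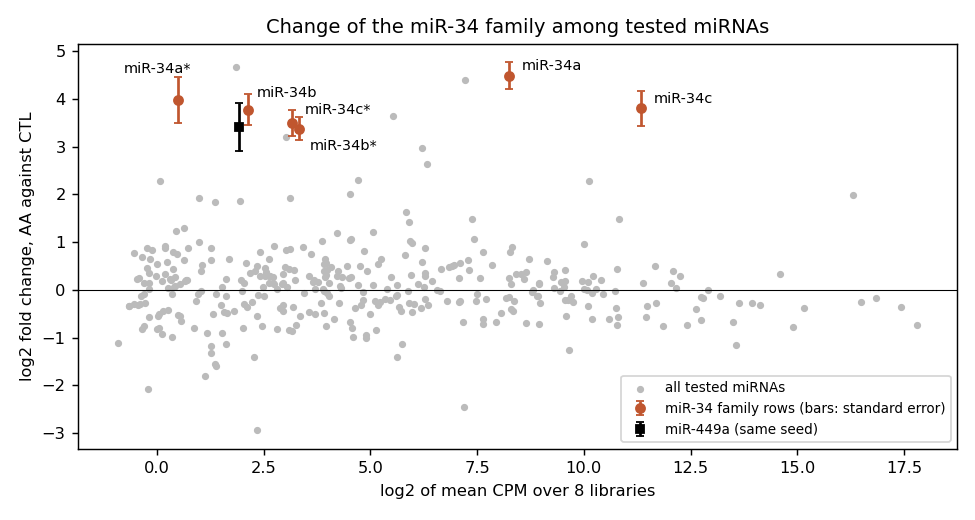
Log2 fold change between AA and control libraries against the log2 of the mean CPM over 8 libraries, for the 367 tested miRNAs in grey, the 6 miR-34 family rows in orange and miR-449a in black, with bars for the standard error. The family rows lie between 3.38 and 4.48 at low as at high abundance, while the median of all tested miRNAs is 0.06.

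The order of the members by mean level was the same in both groups. It ran from miR-34c over miR-34a, miR-34b*, miR-34c* and miR-34b to miR-34a*. The libraries of neighbours in this order did not overlap within a group, except for miR-34b* and miR-34c*. These 2 arms were at 1.76 ± 0.403 and 1.45 ± 0.442 CPM in control libraries and at 18.3 ± 1.53 and 16.4 ± 1.35 CPM in AA libraries (SD, n = 4 each).

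Summed over its 6 rows, the family took 0.0284% to 0.0454% of the miRNA reads in the control libraries and 0.404% to 1.00% in the AA libraries, the highest share being that of AA4. miR-34c made up 90.2% to 92.9% of the family's reads in control libraries and 84.2% to 90.7% in AA libraries. Of the gain in mean CPM between the groups, 88.3% fell on miR-34c, 10.9% on miR-34a and the rest on the other 4 rows. The 3 starred rows together had 35 to 55 reads in a control library and 475 to 746 in an AA library.

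The next question was whether the gene of miR-34a and the gene pair of miR-34b and miR-34c changed by the same factor. Ratios within a library bear on it without any scaling between libraries. Between the groups, 6 such measures were compared, 3 ratios and 3 arm shares (exact permutation test over libraries, two-sided, whose smallest p for 4 against 4 is 0.0286). There were 15.3, 12.5, 10.8 and 14.3 reads of miR-34c per read of miR-34a in CTL1 to CTL4. In AA1 to AA4 there were 10.8, 5.84, 6.65 and 9.50. The AA libraries were lower, except that AA1 fell just above CTL3. On the log2 scale the ratio was 3.71 ± 0.226 in control libraries and 2.99 ± 0.420 in AA libraries (SD, n = 4 each), a difference of -0.72 (standard error 0.24). The difference did not pass the exact permutation test (p = 0.0571, adjusted p = 0.343 over 6 comparisons).

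The ratio of miR-34b to miR-34c differed between the groups by less than the spread of the libraries. One read of miR-34b stood against 512, 635, 315 and 1449 reads of miR-34c in CTL1 to CTL4 and against 533, 341, 444 and 1134 in AA1 to AA4. The widest ratio of each group was in the library numbered 4. The difference between the groups was 0.08 on the log2 scale (standard error 0.57, exact permutation p = 0.857, adjusted p = 0.886).

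The opposite arms of the same hairpin pair were found in nearly equal numbers. There were 1.21, 0.870, 0.917 and 2.50 reads of miR-34b* per read of miR-34c* in CTL1 to CTL4, and 1.13, 1.04, 1.30 and 1.03 in AA1 to AA4. The difference was -0.15 on the log2 scale (standard error 0.35, exact permutation p = 0.886, adjusted p = 0.886). Thus the pair was near 1 to 1 on the 3p arms, where the sequences differ at 5 positions, and at 1 to 578 (control) and 1 to 548 (AA) on the 5p arms, where they differ at 2.

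**Figure D3:**
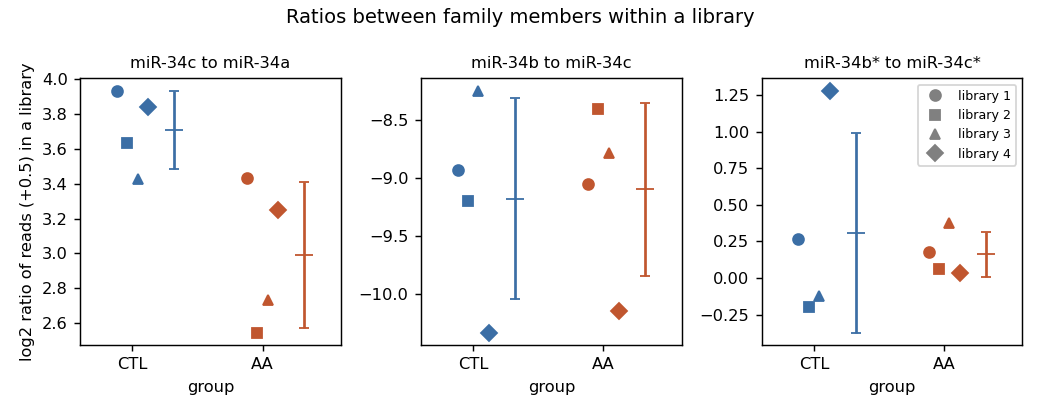
Log2 ratio of reads between family members within each library, with a symbol for each library number and the mean and SD of the group beside the points, blue for control and orange for AA. The ratio of miR-34c to miR-34a has a mean of 3.71 in control libraries and 2.99 in AA libraries, while the groups overlap widely for miR-34b to miR-34c and for miR-34b* to miR-34c*.

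Arm use, the share of a hairpin's reads on the starred arm, set the miR-34b hairpin apart from the other two. For miR-34a, the starred arm held 0.593%, 0.649%, 1.30% and 0% of the reads in CTL1 to CTL4 and 0.591%, 0.586%, 0.524% and 0.263% in AA1 to AA4. The 0 of 404 reads in CTL4 allow a share of up to 0.743%, counting error only. For miR-34c it held 0.466%, 0.600%, 0.582% and 0.172% in the control libraries and 0.334%, 0.605%, 0.461% and 0.190% in the AA libraries. For miR-34b, in contrast, it held 74.4%, 76.9%, 62.9% and 86.2% in the control libraries and 66.9%, 68.3%, 72.7% and 68.9% in the AA libraries, on 26 to 39 reads of both arms in a control library and 350 to 515 in an AA library.

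For all 3 shares the difference between the groups was within the spread of the libraries. The differences, AA less control, were -0.14 percentage points for miR-34a (standard error 0.28, exact permutation p = 0.6), -5.87 for miR-34b (standard error 4.97, exact permutation p = 0.314) and -0.06 for miR-34c (standard error 0.13, exact permutation p = 0.771), with an adjusted p of 0.886 for each. The AA and control libraries overlapped in all 3. Among the 111 hairpins with both arms tested, 12.6% had no overlap of the arm share between the groups. Of the 92 named with a star, 12 had more than 50% of the reads on the starred arm in the control group. By that share miR-34b, as counted, had place 7. With the arms of miR-34b and miR-34c summed, chosen after the values were seen, the starred arms held 0.960% ± 0.244 in control libraries and 0.841% ± 0.373 in AA libraries (SD, n = 4 each).

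The libraries numbered 4 had the lowest starred share of their groups for both miR-34a and miR-34c. Over the 111 hairpins, the library numbered 4 was lowest in both groups for 11 and highest in both for 25. Without the 2 libraries numbered 4, a choice made after the values were seen, the log2 fold changes were 4.35 for miR-34a, 3.63 for miR-34b and 3.59 for miR-34c, and all 6 members were called.

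**Figure D4:**
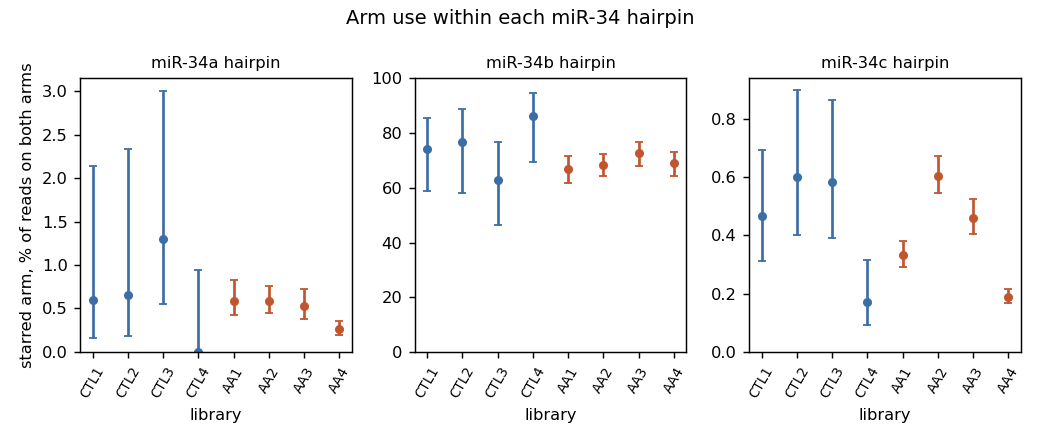
Share of reads on the starred arm in percent of both arms, for each hairpin and library, with 95% Wilson intervals that cover counting error only, blue for control and orange for AA. The miR-34b hairpin lies between 62.9% and 86.2% on an axis to 100%, while the axes of miR-34a and miR-34c end near 3% and 1%.

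The seed of the family was also carried by the 2 miR-449 rows. miR-449a had 18, 6, 10 and 2 reads in CTL1 to CTL4 and 82, 90, 89 and 176 in AA1 to AA4. Like miR-34a* and miR-34b, it entered the test through the AA group. The groups did not overlap, and the log2 fold change was 3.41 ± 0.50 (SE, with an edgeR adjusted p = 0.0012). miR-449c-5p had 2 reads in the control group, both in CTL3, and 10, 5, 1 and 10 in the AA libraries, which overlap with CTL3 and were too few for the test. Beside miR-34c at 3011 CPM or more in the AA group, the miR-449 rows added at most 11.0 CPM to the reads with this seed in any library. miR-449a was also the marker chosen for multiciliated cells, and its part in the result was not tested.

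miRNAs whose profile over the 8 libraries was most like that of the members were found by the root-mean-square difference of log2 CPM, with each profile centred on its control mean and 0.1 CPM added. Outside the family, miR-511*, miR-449a and miR-224 were the 3 closest to miR-34a, at differences of 0.97, 1.02 and 1.08. The 3 closest to miR-34b were miR-449a, miR-224 and miR-511*, at 0.54, 0.63 and 1.03, and those closest to miR-34c were miR-511*, miR-449a and miR-187, at 0.71, 0.79 and 0.84. Within the family, miR-34c was closest to miR-34b* (0.57) and miR-34b to miR-34c* (0.28), whereas miR-34a was closest to miR-34c (0.58). miR-511* and miR-187 lean on AA4, without which their log2 fold changes went from 4.39 to 2.84 and from 3.63 to 2.14.

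Other miRNAs known to be promoted by p53 gave no calls in the direction of the family. Of 9 miRNAs that p53 is known to promote by transcription or processing, 0 were called higher by edgeR, 0 also at an unadjusted p under 0.05 or by DESeq2, and 2 were called lower (of all tested, 10.4% were called higher and 5.99% lower), with a median log2 fold change of -0.36 beside 0.06 for all tested miRNAs. The 2 were miR-194, of the p53-responsive clusters with miR-192 and miR-215, at -0.73 (adjusted p = 0.050 from edgeR, just under the threshold) and miR-107, from an intron of a pantothenate kinase gene, at -0.72 (adjusted p = 0.037 from edgeR). Each of these calls was lost in 10 of 17 other settings, and both together in 8, among them total counts without scaling. miR-192 and miR-215 were at -0.79 and -0.50, with adjusted p of 0.20 and 0.29 from edgeR. Both miR-192 and miR-194 are also on the list of tubule markers, so that the lists are not independent. Whether p53 was active was not tested. The miRNAs whose maturation p53 promotes, miR-16, miR-143 and miR-145, had log2 fold changes of 0.14, -0.36 and 0.27, and the epithelial miR-200c and miR-141 of 0.42 and 0.13, and none of the 5 was called. Over the 367 tested, 16.3% were called in either direction.

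Of the miR-17-92 cluster, which p53 is known to repress, 2 of 6 members were called higher and 0 lower, with a median of 0.61, beside 10.4% called higher and 5.99% lower of all tested. They were miR-18a, at 20.03 ± 4.47 and 46.4 ± 13.8 CPM (SD, n = 4 each, control and AA; log2 fold change 1.21, adjusted p = 0.012 from edgeR), and miR-19b, with a log2 fold change of 0.63 (adjusted p = 0.029 from edgeR). The number called higher was between 1 and 4 over the settings tried, 4 of them with total counts, and the call of miR-19b was lost in 6 of 17. None of the 4 miRNAs that target the p53 mRNA (miR-125b-5p, miR-504, miR-25 and miR-30d) was called, 0 of them at an unadjusted p under 0.05 in edgeR and 0 by DESeq2, and their log2 fold changes were between -0.28 and -0.04. Their median of -0.14 became 0.07 with total counts.

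Markers of other cells moved as well, again beside 10.4% called higher and 5.99% lower of all tested. Of 4 leukocyte miRNAs, miR-142-3p and miR-223 were called higher (log2 fold changes 1.47 and 1.02, adjusted p = 0.0018 and 0.019 from edgeR). The sum of the 4 was 914 to 1264 CPM in control libraries and 2057 to 4121 in AA libraries, without overlap. Most of that sum was miR-142-3p, at 761.5 to 1108 CPM in control libraries and 1854.5 to 3875 in AA libraries. Its other arm, miR-142-5p, overlapped between the groups and was not called (0.30, adjusted p = 0.56 from edgeR). miR-150 was not called either (0.58, adjusted p = 0.062 from edgeR), although its groups did not overlap. It was at 67.4 CPM or less in control libraries and at 77.3 or more in AA libraries. The number of leukocyte miRNAs called higher was between 1 and 3 over the settings tried. Of 3 fibroblast and stroma miRNAs, miR-199a-3p was called higher (0.65, adjusted p = 0.033 from edgeR), with a sum of 468 to 526 CPM in control libraries and 536 to 994 in AA libraries. Of 4 tubule miRNAs, miR-194 and miR-204 were called lower (-0.73 and -0.80, adjusted p = 0.050 and 0.034 from edgeR). The call of miR-194 is the same as that given above among the miRNAs promoted by p53. Over the 17 other settings the call was lost in 9 for miR-199a-3p, in 7 for miR-204 and in 6 for miR-223, and in 0 for miR-142-3p. The 3 epithelial, 2 red blood cell and 3 muscle miRNAs and miR-122 were not called. The log2 fold change of miR-122 was 2.96, and -3.41 without AA2. At an unadjusted p under 0.05 in edgeR or by DESeq2, 0 of the 9 were called either. None of these markers was at 0 in any library. The part of the cell make-up in the rise of the miR-34 family was not tested.

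**Figure D5:**
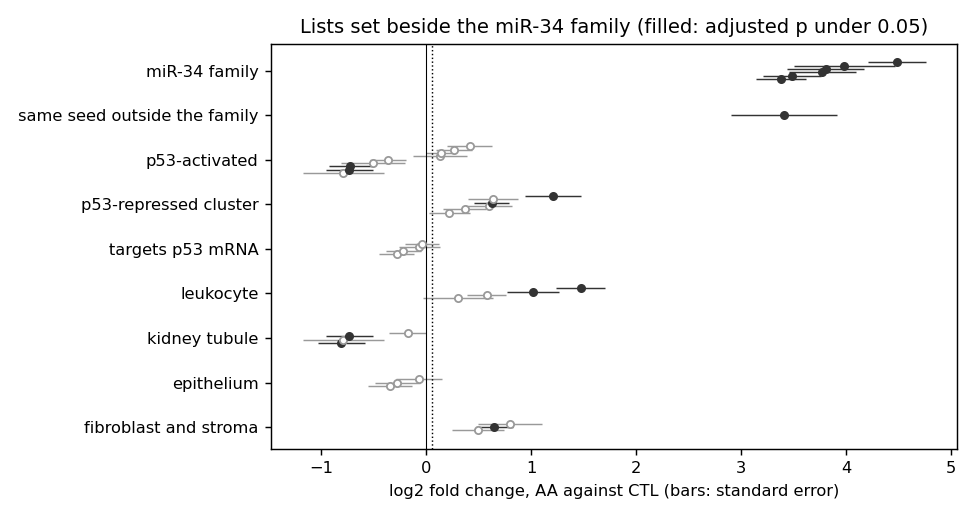
Log2 fold changes between AA and control libraries with standard errors for the miR-34 family, miR-449a, the 3 p53-linked lists and the leukocyte, tubule, epithelial and stroma markers, filled where the adjusted p from edgeR was under 0.05, with a dotted line at the median of all tested miRNAs (0.06). The 6 family rows and miR-449a lie above 3, and the other miRNAs plotted lie between -0.80 and 1.47. The liver, red blood cell and muscle markers are not plotted.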

How the data were processed

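Small RNA libraries of 8 rat kidneys were read on the Illumina Genome Analyzer II. As raw counts, the authors deposited whole numbers of reads for each known rat miRNA in each library. Their methods name Bowtie for all mappings and miRBase for the known miRNAs. The submitters' processing notes name Bowtie and DESeq. The genome build and the mismatches allowed on known miRNAs are not given in the sources used here. Groups and numbers were taken from the sample titles.

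The counts were fitted with edgeR 4.0.16 in R 4.3.3 (glmQLFit, glmQLFTest, TMM, Benjamini-Hochberg over 367 miRNAs that reached 10 reads in 4 or more libraries). On simulated counts for these 367 miRNAs with 200 moved by 2 on the log2 scale in either direction, 97.5% were recovered with 8 false calls. Log2 ratios used a pseudocount of 0.5 reads. Single values were compared by exact permutation (scipy 1.17.1). Alternatives were other scalings and filters, DESeq2 1.42.0, the number as a block, and leaving out libraries. At 13412373 reads or more per library, rows with few reads are limited by counting error. Libraries of a group differed by a chi-square of at least 437 per degree of freedom, so that none was counted as a duplicate.

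The members and lists, and the rule for the miRNAs named (the family, the lists and the 3 closest profiles to each member), were chosen with earlier results of these data known.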

Additional observations from a re-analysis of the deposited data

Results flagged for a closer look

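Of 28 groups of 4 libraries examined for the family, miR-449a, miR-449c-5p and the within-library measures, 2 held a library far from the other 3, and about 1.4 would by chance at a rate of 1 in 20. miR-34a was at 877 CPM in AA4 and at 442 to 516 in the other AA libraries. miR-449c-5p was at 0.124 CPM in CTL3, from 2 reads, and at 0 in the other control libraries.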

How the results depend on the processing

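All 6 members kept their direction and their call in each alternative that tested them. Over these fits the log2 fold change lay between 4.12 and 4.70 for miR-34a, 3.63 and 4.59 for miR-34a*, 3.59 and 3.98 for miR-34b, 3.22 and 3.60 for miR-34b*, 3.31 and 4.02 for miR-34c, and 3.30 and 3.70 for miR-34c*. miR-34a* and miR-34b were not tested where 10 reads were required in all 8 libraries. The number of miRNAs called was 60 in the fit reported and 36 to 54 with 1 library left out, with 36 without CTL2 and 38 without CTL1. With total counts the median log2 fold change of all tested miRNAs moved from 0.06 to 0.27 and the higher share of calls from 63.3% to 79.4%, so that the members' values there are to be read against that shift. The fit with a replicate block on the library number called 78 miRNAs, of which 57 were shared, and no call of a member changed. No label says what the numbers share. Deviations of same-numbered libraries correlated at 0.05, 0.20, 0.14 and 0.35 across 367 miRNAs, over 0.1 in 3 of 4 pairs, and 6 of 8 libraries correlated best with their own number, a hint of pairing from the data that does not come from the design, so that the libraries were compared unpaired. The ratio of miR-34c to miR-34a was lower in the AA library in 4 of 4 same-numbered pairs. The paired sign-flip test of the within-library measures cannot go below 0.125. With a pseudocount of 1 read the difference in the ratio of miR-34b to miR-34c was -0.010 in place of 0.08, on 4 to 13 control reads. With 1 library left out, that difference ranged from -0.31 to 0.43, and that of miR-34c to miR-34a from -0.87 to -0.57. Depth limits the starred arms and miR-34b in the control group most.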
